A study of Mus musculus with 14 samples.

Results

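The epithelial miRNAs miR-203, miR-205 and the miR-200 family were followed through macrophage exosomes and cells of the mouse. The lines were chosen by name: mmu-miR-203-3p, mmu-miR-203-5p, mmu-miR-203b-5p, mmu-miR-203b-3p, mmu-miR-205-5p, mmu-miR-200a-3p, mmu-miR-200b-3p, mmu-miR-200c-3p, mmu-miR-141-3p and mmu-miR-429-3p, written below without the species prefix. These are 10 of the 1250 miRNA lines of the count table, and all 10 had at least 1 library with a count. Small RNA was sequenced in 14 libraries labelled as bone marrow, from excised bone: 4 of exosomes from IL4-stimulated macrophages, 4 of exosomes from control macrophages, 3 of lysates of IL4-stimulated macrophages and 3 of lysates of control macrophages. IL4, an interleukin of type 2 immunity, pushes macrophages into a state of wound healing and tissue repair, and the controls are labelled as wild type. Exosomes are small vesicles that cells release, and here they were isolated by density gradient from the medium over the cells. The labels name no strain, age, IL4 dose or exposure time. Nor do they tie the libraries of a group to separate mice or cultures, and p-values thus measure only how these libraries spread. Each title carries a date. Every date held 1 IL4 and 1 control library, on 29 December and, in the next year, 25 January, 16 March and 5 April for exosomes, and on 23 January, 14 March and 21 March of that year for lysates.

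MicroRNAs are short RNAs that pair, mainly through a seed near their 5′ end, with messenger RNAs and lower their output. miR-203 is best known from the skin, where it limits the self-renewal of epidermal progenitors by repressing the transcription factor p63. miR-205 is abundant in stratified epithelia and hair follicles. The miR-200 family (miR-200a, miR-200b, miR-200c, miR-141 and miR-429) keeps cells epithelial by repressing Zeb1 and Zeb2, repressors of E-cadherin, and miR-205 shares these targets.

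The mature sequences are shown because they set which lines can share reads and targets. All 10 lines were matched to RefSeq mature sequences on build GRCm38.p6. They are written 5′ to 3′, with the seed, bases 2 to 8, in capitals.
miR-203-3p: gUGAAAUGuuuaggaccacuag
miR-203b-5p: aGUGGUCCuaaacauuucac
miR-203-5p: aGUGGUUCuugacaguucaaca
miR-203b-3p: uUGAACUGucaagaaccacugg
miR-205-5p: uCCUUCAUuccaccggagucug
miR-200b-3p: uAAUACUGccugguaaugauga
miR-200c-3p: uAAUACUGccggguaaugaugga
miR-429-3p: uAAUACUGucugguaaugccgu
miR-200a-3p: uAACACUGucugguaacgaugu
miR-141-3p: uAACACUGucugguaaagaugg

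The miR-203 hairpin lies at chr12:112130880-112130955 on the plus strand, in no annotated host gene and 3321 bases beyond the end of Aspg. The miR-203b hairpin (Gm51289) lies inside it on the minus strand, at chr12:112130887-112130946. miR-203b-5p is therefore the exact reverse complement of bases 1 to 20 of miR-203-3p, and miR-203b-3p shares 20 bases with the reverse complement of miR-203-5p. The miR-205 hairpin is at chr1:193507463-193507530 on the minus strand, within an exon of the long non-coding RNA gene 4631405K08Rik. miR-429 (chr4:156053905-156053987), miR-200a (chr4:156054896-156054985) and miR-200b (chr4:156055681-156055750) form 1 cluster on the minus strand inside Ttll10 and Gm13648, with miR-429 in an exon of Gm13648. miR-141 (chr6:124717914-124717985) and miR-200c (chr6:124718322-124718390) form the other, 337 bases apart on the minus strand inside Gm15884, annotated as an antisense RNA gene.

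Within the miR-200 family, miR-200b, miR-200c and miR-429 share the seed AAUACUG, and miR-200a and miR-141 share AACACUG. No other line of the 1049 with a sequence has either seed. The closest pairs, miR-200a with miR-141 and miR-200b with miR-200c, differ at 2 of 22 bases, so reads with errors could move between their lines. The other pairs of the family differ at 4 or 5 bases.

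The exosome libraries held 28417 to 411671 counts in all and the lysates 3941480 to 6792079. A single count is thus worth 2.43 to 35.2 CPM, the count scaled to a fixed library total, in exosomes, against 0.147 to 0.254 CPM in lysates, and exosome levels below about 100 CPM rest on a few counts. The lines listed as macrophage and myeloid markers, such as miR-21a-5p, miR-223 and miR-142a, took 217349 to 322644 CPM in exosomes and 286432 to 453654 CPM in lysates. Most of this was miR-21a-5p alone, with means of 247539 and 212538 CPM in IL4 and control exosomes. In IL4 and control lysates its means were 384594 and 287365 CPM. For miR-223-3p the means were 11143 and 20895 CPM in IL4 and control exosomes. The sum thus mainly follows miR-21a-5p. At least 7 of the 8 markers had a count in every library.

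The miR-203-3p line was abundant in exosomes and scarce in the cells. On 29 December, 25 January, 16 March and 5 April it had 17803, 100436, 6658 and 197 CPM in IL4 exosomes. Control exosomes of the same dates had 9186, 47542, 12486 and 653 CPM. Both exosome groups were highest on 25 January and lowest on 5 April. On 23 January, 14 March and 21 March miR-203-3p had 15.4, 12.7 and 7.79 CPM in IL4 lysates, against 13.2, 20.9 and 20.1 CPM in control lysates. Every exosome library therefore lay above every lysate. How large a share of all lines separated in this way was not counted. On 25 January it ranked 2nd of all lines in IL4 exosomes and 4th in control exosomes, against ranks 229 to 286 in the lysates.

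**Figure D1:**
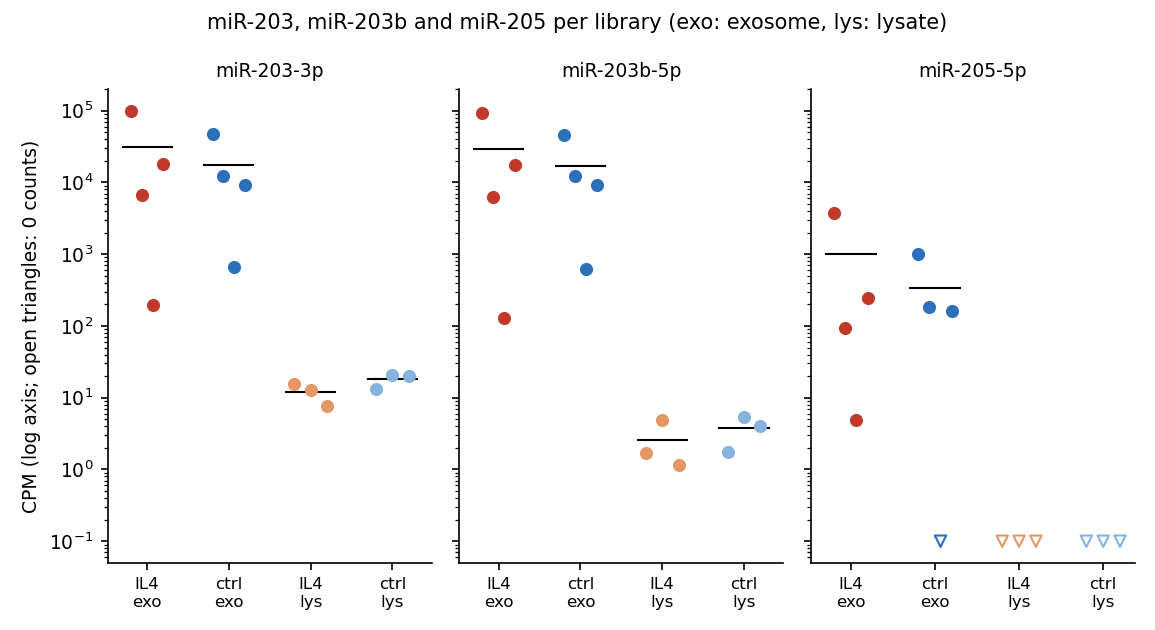
CPM of miR-203-3p, miR-203b-5p and miR-205-5p in each library (log axis), by group from left to right: IL4 exosomes, control exosomes, IL4 lysates and control lysates; black lines are group means and open triangles are libraries with 0 counts. miR-203-3p ran from 197 to 100436 CPM in exosomes and from 7.79 to 20.9 CPM in lysates, and miR-205-5p had a count in exosomes only.

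miR-203-3p averaged 31273 ± 46678 CPM in IL4 exosomes (SD, n = 4), against 11.95 ± 3.85 CPM in IL4 lysates (SD, n = 3). In controls it averaged 17467 ± 20661 CPM in exosomes (SD, n = 4) and 18.1 ± 4.24 CPM in lysates (SD, n = 3). In 1 fit of all 14 libraries with edgeR's quasi-likelihood test, which scales by the trimmed mean of M-values (TMM), the log2 fold change of exosomes over lysates was 10.91 with IL4 (SE 2.13, Benjamini-Hochberg adjusted p = 0.000929). In controls it was 9.16 (SE 1.99, adjusted p = 0.00152). The lowest exosome library was 12.8-fold above the highest lysate with IL4 and 31.2-fold above it in controls. These are bulk libraries, in which fewer cells or vesicles of a kind and less RNA in each cannot be told apart.

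Of the 10 lines, 6 passed the filter on low counts in this fit: miR-203-3p, miR-203b-5p, miR-205-5p, miR-200a-3p, miR-200b-3p and miR-200c-3p. A line is called here at an adjusted p of 0.05 or less. With IL4, 3 of the 6 were called, all higher in exosomes, where 49.4% of all 338 lines tested were called, 30.2% higher and 19.2% lower. In controls the same 3 were called, against 50.9% of lines, 29.3% higher and 21.6% lower. All 3 passed the filter through their exosome counts. In lysates miR-203-3p had at most 20.9 CPM, miR-203b-5p at most 5.45 CPM and miR-205-5p 0 counts. miR-429-3p, at 12.5 to 30.3 CPM in lysates, did not pass. A higher level in exosomes was thus built into these 3 tests. The miR-203 lines kept their call without the filter. Exosomes and lysates shared no date and differed in depth and purification, and none of these can be told apart from the compartment.

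Markers of other cells were counted by list in the same fit. The 3 erythroid lines found (miR-451a, miR-144-3p and the joint miR-486 line) were all called higher in both treatments, with summed levels of 21466 to 54474 CPM in exosomes and 117 to 210.1 CPM in lysates. Both arms of endothelial miR-126a were called higher too, with 4097 to 27546 CPM in exosomes and 13.4 to 33.9 CPM in lysates. Lymphocyte miR-150-5p was at 639 to 1865 CPM in exosomes and 9.39 to 28.1 CPM in lysates, and was also called higher in both treatments. Stromal lines were higher for 4 of 5 with IL4, and for 3 of 5 in controls with 1 lower. Both muscle lines tested were higher in both treatments. Liver and gut lines were higher for 1 of 3 with IL4 and 2 of 3 in controls, and neural lines for 0 of 2 and 1 of 2. Of the 8 macrophage markers, 4 were lower and 1 higher in exosomes with IL4, and 5 were lower in controls. Among all 338 lines, 30.2% were higher and 19.2% lower with IL4, and 29.3% and 21.6% in controls. miR-451a, miR-144-3p, both miR-126a arms, miR-150-5p and miR-1a-3p averaged at most 26.7 CPM in a lysate group and passed the filter through exosome counts. So did muscle miR-133a-3p and stromal miR-145a-5p and miR-214-3p, which averaged at most 5.76 CPM in a lysate group. A higher level in exosomes was thus built into the tests of all these lines, which limits the counts of higher lines given above. The part of the listed lines in the level of the epithelial ones was not tested.

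The line on the opposite strand, miR-203b-5p, followed miR-203-3p in exosomes. On 29 December, 25 January, 16 March and 5 April it had 1343, 4643, 474 and 53 counts in IL4 exosomes, beside 1366, 5025, 497 and 81 of miR-203-3p. In control exosomes it had 332, 1286, 664 and 124 counts, beside 336, 1351, 679 and 130. In lysates it was far below its partner, with 10, 19 and 6 counts beside 90, 50 and 40 with IL4, and 10, 37 and 22 beside 76, 142 and 111 in controls. Expressed as a percentage of miR-203-3p counts, miR-203b-5p was 65.4 to 98.8% in the 8 exosome libraries and 11.1 to 38.0% in the 6 lysates, with no overlap. The one exosome library below 92.4% was that of IL4 on 5 April, at 65.4% of 81 counts.

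The log2 ratio of miR-203b-5p to miR-203-3p, with 0.5 added to each count, averaged -0.13 ± 0.20 in exosomes (SD, n = 8), against -2.37 ± 0.64 in lysates (SD, n = 6). The difference of 2.24 gave a two-sided exact permutation p = 0.000666, the smallest these 14 libraries allow. That test takes the libraries as independent, although the dates pair them. Among IL4 libraries alone, where each date counts once, the ratio differed by 2.17, and among controls alone by 2.32, each with exact permutation p = 0.0571, the smallest that 4 against 3 libraries allow. The sources used here do not state whether counting used the strand. How far the miR-203 and miR-203b lines share reads was not tested, and the level of miR-203b-5p is uncertain.

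**Figure D2:**
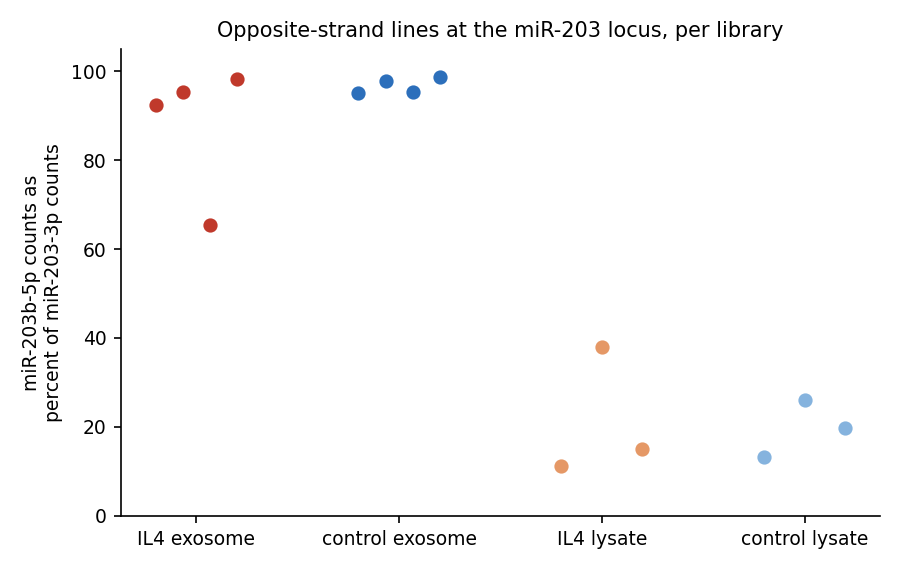
Counts of miR-203b-5p as a percentage of miR-203-3p counts in each library, by group; each point is 1 library. The 8 exosome libraries sit at 65.4 to 98.8% and the 6 lysates at 11.1 to 38.0%.

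The miR-203 pair was set beside the other opposite-strand pairs of the table. Among its lines, 21 pairs overlap on opposite strands by at least 15 bases, and 7 of them had at least 100 counts of the higher line in each compartment. In the 6 such pairs other than miR-203, the lower line had 0.0256 to 4.94% of the counts of the higher one in exosomes and 0.0277 to 4.83% in lysates. For the miR-203 pair the pooled figures were 94.2% in exosomes and 20.4% in lysates. Pairs with fewer counts were often closer to equal in exosomes. Of the 14 other pairs, 9 had at least 10 counts of the higher line in exosomes, and in 5 of these the lower line had at least 50% of them (76.9 to 109.4%). In lysates 4 of the 5 had counts, and the lower line was at 0 to 30.6% there. The pair with the most counts of the 5 was miR-219b-3p, with 69 counts in exosomes beside 77 of miR-219a-5p, against 15 beside 49 in lysates. This tally was made once the values were known.

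The other arms, miR-203-5p and miR-203b-3p, had 7 counts each, all in the IL4 exosome library of 25 January, which is 139.9 CPM there. The pair of lines held equal values in all 14 libraries and neither was tested. Without a count, the lysate groups allow at most 0.201 CPM with IL4 and 0.166 CPM in controls, at 3 counts over the group, for counting error only. Each shares 20 bases with the reverse complement of the other, as their sequences show.

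miR-205-5p, the stratified-epithelium miRNA, was found in exosomes and had 0 counts in all 6 lysates. On 29 December, 25 January, 16 March and 5 April it had 248, 3738, 93.8 and 4.86 CPM in IL4 exosomes, which are 19, 187, 7 and 2 counts. In control exosomes of these dates it had 164, 1021, 184 and 0 CPM, from 6, 29, 10 and 0 counts. Again the libraries of 25 January were the highest and those of 5 April the lowest of each group. The means were 1021 ± 1814 CPM in IL4 exosomes and 342 ± 460 CPM in control exosomes (SD, n = 4 each). The exosome means were 5082-fold the same floor of 3 counts over the lysate group with IL4, and 2058-fold that floor in controls. These folds bound the lysate side only, since the exosome means carry their own spread. Pooled over the group, exosomes had 350.7 CPM with IL4 and 141.3 CPM in controls, below those means. The control exosome library of 5 April had 0 counts, as the lysates did. Its counts were 1.39 to 3.72% of those of miR-203-3p in IL4 exosomes and 0 to 2.15% of them in control exosomes.

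miR-203 and miR-205 levels differed between the exosome dates. In a fit of the 8 exosome libraries with treatment and date, 182 lines were tested, and miR-203-3p (adjusted p = 0.00179), miR-203b-5p (adjusted p = 0.00309) and miR-205-5p (adjusted p = 0.00103) were all called for date by edgeR's quasi-likelihood F test, where 11.0% of lines were called. The F test called 1 of the 3 without the IL4 library of 16 March and 0 without that of 5 April. On 25 January against the mean of the other dates, the log2 fold change was 4.52 for miR-203-3p (SE 0.45, adjusted p = 0.000461) and 4.54 for miR-203b-5p (SE 0.51, adjusted p = 0.00056). For miR-205-5p it was 5.72 (SE 0.46, adjusted p = 0.000164), a value that rests in part on the 2 and 0 counts of 5 April. Without the IL4 library of 25 January these fell to 3.60, 3.55 and 4.56, and without the control library of that date they were 5.42, 5.48 and 6.63, all still called. On that date 8.24% of lines were called, 6.59% higher and 1.65% lower, and these 3 had the largest fitted rises among the called lines. miR-23a-5p (2.66, SE 0.46) and miR-3963 (2.25, SE 0.29) came next.

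On 5 April the same 3 lines were called lower than on the other dates, by edgeR's test. The log2 fold change was -5.78 for miR-203-3p (SE 0.70, adjusted p = 0.00203) and -5.96 for miR-203b-5p (SE 0.79, adjusted p = 0.0021), where 7.14% of lines were called, 4.95% lower and 2.20% higher. miR-205-5p was called too (adjusted p = 0.00203), but no fold is given against its 2 and 0 counts of that date. Without the control library of 5 April the miR-203 values were -7.13 and -7.67. Without the IL4 library of 5 April they were -4.94 and -4.97 and all 3 calls were lost (adjusted p = 0.0892 for both miR-203 lines and 0.101 for miR-205-5p), and without the control library of that date the call on miR-205-5p was lost (0.064). Each date contrast without 1 of its libraries rests on a lone sample assumed to vary like the others. The 4 lines called higher on 5 April were both arms of endothelial miR-126a, miR-30a-5p and miR-10b-5p, with log2 fold changes of 0.87 to 0.98.

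On 29 December 4.40% of lines were called, 3.85% higher and 0.549% lower, and on 16 March 0% were called in either direction (14 lines had an unadjusted p under 0.05). None of the 3 lines was called on these dates. The 5 largest rises of 29 December were miR-146a-5p, miR-328-3p, let-7e-5p, let-7c-5p and miR-99b-5p, at 0.99 to 1.22 on the log2 scale.

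Other values moved with the date. The libraries of 5 April were the deepest, at 411671 counts with IL4 and 199025 in controls, and the control library of 25 January was the shallowest. Both miR-126a arms were called lower on 25 January and higher on 5 April, the opposite directions to miR-203. From 29 December to 5 April their sum was 6960, 4097, 14200 and 15918 CPM in IL4 exosomes and 8257, 6862, 27546 and 23490 CPM in control exosomes. None of the 3 erythroid lines and none of the 6 other epithelial lines tested was called on either date. The part of depth and of the endothelial lines in the date difference was not tested.

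**Figure D3:**
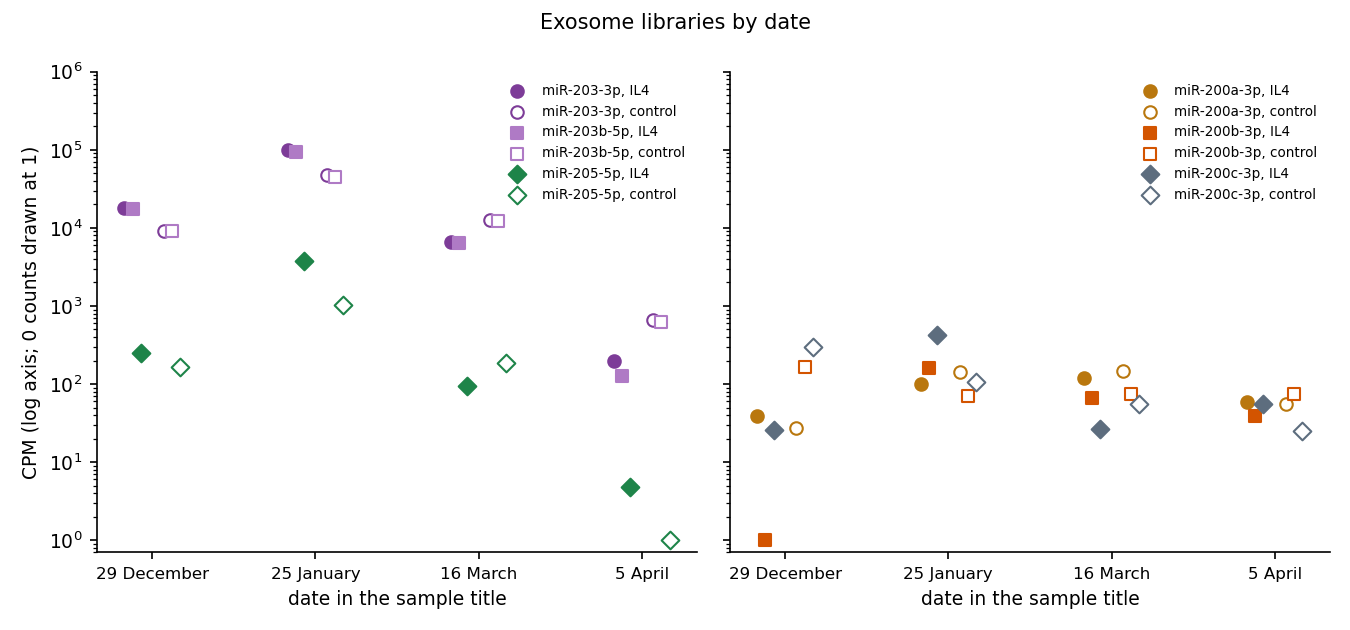
CPM in each exosome library by the date in its title (log axis, 0 counts drawn at 1); filled symbols are IL4 and open symbols are control exosomes. Left, miR-203-3p, miR-203b-5p and miR-205-5p were highest on 25 January (100436 CPM of miR-203-3p with IL4, 47542 in the control) and lowest on 5 April (197 and 653 CPM); right, miR-200a-3p, miR-200b-3p and miR-200c-3p stayed between 0 and 419.7 CPM.

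Because 1 locus took so large a share, it also weighs on every other CPM of its library. The miR-203 lines held 19.35% of all counts in IL4 exosomes and 9.28% in control exosomes on 25 January. With the miR-203b lines dropped, miR-203-3p alone held 11.1% and 4.98% of those libraries. On 5 April the miR-203 lines held 0.0326% with IL4 and 0.128% in the control. All 10 lines together took 0.0488 to 19.8% of exosome counts and 0.0162 to 0.0271% of lysate counts.

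Over the 8 exosome libraries, Pearson's r of log2 CPM on the TMM scale was 0.999 between miR-203-3p and miR-203b-5p and 0.957 between miR-203-3p and miR-205-5p. Among the 182 lines tested, those most like miR-203-3p outside its own locus were miR-205-5p, miR-5108 (r = 0.93), miR-5119 (0.904), miR-5124a (0.883) and miR-3963 (0.856). Those most like miR-205-5p were miR-3963 (0.919), miR-5119 (0.914), miR-27a-3p (0.908), miR-183-5p (0.90) and miR-5108 (0.883). All these points share the library, its depth and its date, so the values are a description. miR-5108, for one, had 352, 780, 281 and 53.4 CPM from 29 December to 5 April in IL4 exosomes, against 684, 1091, 313 and 146 CPM in control exosomes.

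IL4 against control was not called for any of these lines in exosomes. The fit of the 8 exosome libraries tested 3 of the 10 lines (miR-203-3p, miR-203b-5p and miR-205-5p), and edgeR's quasi-likelihood test called 0 of them, where it called 0.549% of lines (12 of 182 had an unadjusted p under 0.05). DESeq2 called neither miR-203 line (6 of the 182 lines in all) and gave no adjusted p for miR-205-5p. The log2 fold change was 1.07 for miR-203-3p (SE 1.49), 1.03 for miR-203b-5p (SE 1.51) and 1.95 for miR-205-5p (SE 1.79), all with adjusted p = 0.862. The median over these 3 was 1.07, against -0.09 over all lines tested. Within a date, the ratio of IL4 to control for miR-203-3p was 1.94 on 29 December, 2.11 on 25 January, 0.533 on 16 March and 0.301 on 5 April. It was thus above 1 at 2 of 4 dates, and for miR-205-5p IL4 was the higher at 3 of 4.

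The sign of the IL4 difference turned with 1 library. Without the IL4 library of 25 January the log2 fold changes were -0.96 for miR-203-3p, -0.94 for miR-203b-5p and -1.44 for miR-205-5p. Without both libraries of 25 January they were 0.34, 0.33 and 0.29. With date as a block they were 0.06, -0.06 and 1.05, and again 0 were called. Without the filter on low counts, 12 of 758 lines were called, all 3 among them (1.35, 1.30 and 2.21, adjusted p = 0.00765, 0.0109 and 0.000344).

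In lysates 7 of the 10 lines were tested, and IL4 against control was called for 0 of them by edgeR's test and by DESeq2, where 7.22% of 443 lines were called, 5.87% higher and 1.35% lower (63 had an unadjusted p under 0.05). The log2 fold changes were -0.45 for miR-203-3p (SE 0.32, adjusted p = 0.74) and -0.44 for miR-203b-5p (SE 0.70, adjusted p = 0.868). The difference of the IL4 effects between compartments was 1.75 for miR-203-3p (SE 1.91, adjusted p = 1) and 1.66 for miR-203b-5p (SE 2.12, adjusted p = 1). edgeR's test of that difference, like DESeq2's, called neither these nor the 3 miR-200 members tested, and 0% of all 338 lines (14 had an unadjusted p under 0.05 with edgeR). For miR-205-5p, with 0 counts in every lysate, there is no such difference to test.

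The miR-200 family was counted in cells as well as in exosomes, and none of the 3 members tested between the compartments was called. miR-141-3p and miR-429-3p were not tested there. With IL4, miR-429-3p was at 1.21 ± 2.43 CPM in exosomes, from 2 counts (SD, n = 4), and at 16.6 ± 3.84 CPM in lysates (SD, n = 3), with no overlap. In the IL4 exosome libraries of 29 December, 25 January and 16 March a single count was worth 13.03, 19.99 and 13.4 CPM. A lack of counts in each of these libraries taken alone is thus no sign of a level below that of lysates. Only the library of 5 April, at 2.429 CPM for a single count, was deeper, and it had 4.858 CPM. Pooled over the group, IL4 exosomes had 3.26 CPM (counting interval 0.395 to 11.8), below the 16.1 CPM (14.2 to 18.3) of IL4 lysates. In controls the pooled intervals overlapped, at 28.3 CPM (12.9 to 53.7) in exosomes and 25.9 CPM (23.6 to 28.3) in lysates. Such intervals leave out the spread between libraries, and the library of 5 April held most of the pooled IL4 exosome counts. The share of all lines without overlap between libraries was not counted. Without the filter on low counts, edgeR called both miR-141-3p and miR-429-3p for exosomes against lysates with IL4, where 238 of 1250 lines were called. In lysates all 5 members had a count in every library. miR-200c-3p had 77.2, 56.3 and 46.9 CPM in IL4 lysates of 23 January, 14 March and 21 March, against 90.6, 61.8 and 79.1 CPM in control lysates. miR-200b-3p had 45.1, 71.0 and 48.1 CPM with IL4 and 55.6, 80.0 and 92.0 CPM in controls. miR-200a-3p had 32.1, 37.3 and 38.4 CPM with IL4, against 35.99, 46.7 and 48.4 CPM in controls. miR-200c-3p and miR-200b-3p overlapped in range within each group, and miR-200a-3p lay below both in each group. miR-429-3p followed at 12.5, 20.04 and 17.3 CPM with IL4 and 21.6, 30.3 and 24.9 CPM in controls. miR-141-3p was the lowest, at 2.91, 2.54 and 2.34 CPM with IL4 and 4.35, 4.27 and 2.54 CPM in controls. Counts of different lines are compared here without regard to how well each sequence is captured in a library.

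Each of the 5 was lower with IL4 at all 3 dates by CPM. The share of all lines lower at all 3 dates was not counted. On the TMM scale none was called: the log2 fold change was -0.43 for miR-429-3p (SE 0.32, adjusted p = 0.759), -0.33 for miR-141-3p (SE 0.45, adjusted p = 0.868), -0.29 for miR-200b-3p (SE 0.32, adjusted p = 0.82), -0.17 for miR-200c-3p (SE 0.21, adjusted p = 0.847) and -0.09 for miR-200a-3p (SE 0.27, adjusted p = 0.96). The median of the 7 lines tested was -0.33 and that of all lines 0.0009. Scaling by library total alone moved the median of all lines by -0.19.

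**Figure D4:**
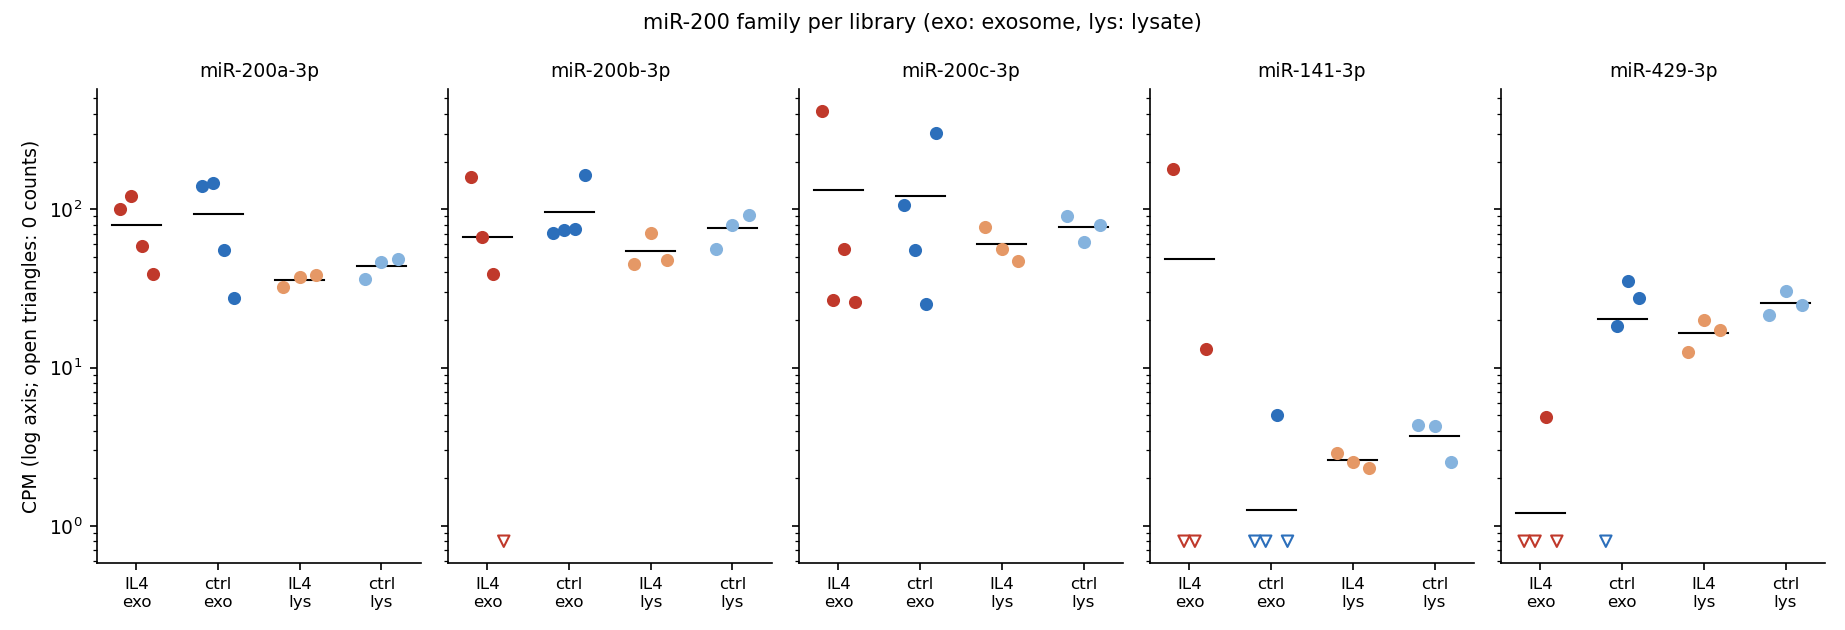
CPM of the 5 miR-200 family members in each library (log axis), by group from left to right: IL4 exosomes, control exosomes, IL4 lysates and control lysates; black lines are group means and open triangles are libraries with 0 counts. miR-429-3p ran from 12.5 to 20.04 CPM in IL4 lysates and from 21.6 to 30.3 CPM in control lysates, and exosome libraries with 0 counts were seen for miR-200b-3p, miR-141-3p and miR-429-3p.

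In exosomes the family rested on few counts. From 29 December to 5 April, miR-200a-3p had 3, 5, 9 and 24 counts with IL4 and 1, 4, 8 and 11 in controls. miR-200b-3p had 0, 8, 5 and 16 counts with IL4, against 6, 2, 4 and 15 in controls. miR-200c-3p had 2, 21, 2 and 23 counts with IL4 and 11, 3, 3 and 5 in controls. No member of the family passed the filter in the fit of exosomes alone. As CPM the means were 79.5 ± 37.4 and 92.6 ± 60.4 for miR-200a-3p, 66.4 ± 68.1 and 95.8 ± 45.5 for miR-200b-3p, and 132 ± 192 and 122 ± 124 for miR-200c-3p, in IL4 and control exosomes (SD, n = 4 each). Differences between these groups were not detectable at this depth.

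Set against lysates in the fit of all libraries, the log2 fold change of exosomes with IL4 was 0.35 for miR-200a-3p (SE 0.55), -0.62 for miR-200b-3p (SE 0.72) and 0.38 for miR-200c-3p (SE 0.89). In controls it was 0.16 (SE 0.57), -0.57 (SE 0.71) and -0.33 (SE 0.94). None was called in either treatment, by edgeR's adjusted p of 0.498 to 0.829, and the sign of several turned under other settings. The miR-203 lines kept their sign and call under all 16 alternatives run for miR-203-3p and all 15 for miR-203b-5p in each treatment. Except without the filter on low counts, these alternatives kept the filter that the miR-203 lines passed through their exosome counts. In all of them compartment stayed tied to date, depth and purification.

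The rarest members had 10 (miR-141-3p) and 2 (miR-429-3p) counts over all IL4 exosomes, against 1 and 9 over all control exosomes. The pooled ratio of IL4 to control was 5.19 for miR-141-3p (95% counting interval 0.739 to 225) and 0.115 for miR-429-3p (0.0121 to 0.558). Of the 10 miR-141-3p counts, 9 were in the library of 25 January. These intervals cover counting error only, not the spread between libraries.

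The make-up of the family varied between exosome libraries. miR-200a-3p made 38.7 ± 19.8% of family counts in IL4 exosomes and 31.98 ± 20.1% in control exosomes, and miR-200c-3p 32.5 ± 15.01% and 30.7 ± 20.1% (SD, n = 4 each). The order of these members in exosomes is within that spread. Pooled shares are given with intervals for counting error only. Of the 213 family counts in exosomes, miR-200c-3p made 32.9% (95% Wilson interval 26.9 to 39.4%), miR-200a-3p 30.5% (24.7 to 37.0%), miR-200b-3p 26.3% (20.8 to 32.6%) and miR-141-3p and miR-429-3p 5.16% each (2.91 to 9.01%); of the 11 counts of miR-141-3p, 9 came from 1 library. Of the 6591 in lysates, miR-200c-3p made 34.8%, miR-200b-3p 32.8%, miR-200a-3p 20.1%, miR-429-3p 10.7% (10.02 to 11.5%) and miR-141-3p 1.62% (1.35 to 1.96%). The chromosome 4 cluster held 63.1 ± 8.88% of family counts in IL4 lysates and 63.9 ± 8.41% in control lysates (SD, n = 3 each).

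In lysates the date was called for 0 of the 7 lines by edgeR's F test and by DESeq2, where edgeR called 6.09% of lines (3 of the 7 had an unadjusted p under 0.05). Of the single contrasts, miR-200b-3p was lower on 23 January than on the other dates (log2 fold change -0.76, SE 0.18, adjusted p = 0.0276), where 14.9% of lines were called, 7.22% lower and 7.67% higher. The other members of its cluster had -0.71 (miR-429-3p, SE 0.22, adjusted p = 0.0656) and -0.57 (miR-200a-3p, SE 0.17, adjusted p = 0.0653). The call on miR-200b-3p was lost when libraries were scaled by their total (adjusted p = 0.107), without the control lysate of 23 January (0.0558) and without that of 21 March (0.0747). On 14 March and 21 March 0 of the 7 lines were called, where 0.451% of lines were called on 14 March (all higher) and 2.26% on 21 March (1.81% higher, 0.451% lower).

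Over the 6 lysates the members of the chromosome 4 cluster varied together: r was 0.842 between miR-200a-3p and miR-200b-3p, 0.825 between miR-200a-3p and miR-429-3p, and 0.852 between miR-200b-3p and miR-429-3p. The chromosome 6 pair, miR-200c-3p and miR-141-3p, had r = -0.091. The lines most like each member among 443 were miR-26b-5p (0.988), miR-152-3p, miR-7019-3p, miR-29c-3p and miR-151-5p for miR-200a-3p. For miR-200b-3p they were miR-122-5p (0.966), miR-5121, miR-1843a-5p, miR-1843b-5p and miR-148b-5p, and for miR-200c-3p miR-3963 (0.95), miR-106b-3p, miR-345-5p, miR-1306-3p and miR-676-3p. For miR-141-3p they were let-7f-2-3p (0.973), miR-542-3p, let-7i-5p, miR-466c-5p and miR-148b-3p, and for miR-203-3p miR-186-3p (0.893), miR-3066-5p, miR-338-5p, miR-215-5p and let-7b-5p. Those of miR-429-3p were miR-467c-5p (0.914), miR-22-3p, miR-872-5p, miR-30e-3p and miR-142a-5p. With 6 points that share depth and date, these are descriptions.

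The passenger arms of the miR-200 family and miR-205 were barely counted: 3 of the 6 listed had a line, and only miR-200b-5p was tested, in lysates alone (IL4 minus control, log2 -1.53, SE 0.68, adjusted p = 0.374). miR-200a-5p averaged 0.983 ± 0.895 CPM in IL4 lysates and 2.25 ± 1.18 CPM in control lysates (SD, n = 3 each). Of 15 other miRNAs known from epithelia, 14 had a line. IL4 against control was called for 0 of 6 tested in exosomes, where 0.549% of all lines were called. In lysates, where 7.22% of all lines were called, 8 were tested, and 1 was higher with IL4 (miR-449a-5p of multiciliated cells, 2.72, SE 0.56, adjusted p = 0.0256) and 1 lower (miR-182-5p of sensory epithelia, -0.96, SE 0.23, adjusted p = 0.0407).

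Exosomes were higher than lysates for 6 of 8 of these other epithelial lines with IL4 and for 5 of 8 in controls, and lower for 0, where 30.2% and 29.3% of all lines were higher and 19.2% and 21.6% lower. miR-184-3p of the cornea and lens had the highest level: its mean was 1547 ± 1802 CPM in IL4 exosomes against 3.25 ± 1.83 CPM in IL4 lysates, and 2827 ± 4302 CPM in control exosomes against 2.15 ± 1.15 CPM in control lysates (SD, n = 4 and 3). miR-224-5p averaged 206 ± 203 CPM in IL4 exosomes and 0.397 ± 0.355 CPM in IL4 lysates. miR-375-3p, of endocrine and secretory epithelia, averaged 34.5 ± 44.9 CPM in IL4 exosomes and 49.96 ± 49.4 CPM in control exosomes (SD, n = 4 each), against 2 counts over the IL4 lysates and 0 over the control lysates. Both it and miR-224-5p, with 0 to 6 counts in a lysate group, reached the fit through their exosome counts, as did miR-184-3p. The same holds for miR-31-5p, which averaged at most 1.88 CPM in a lysate group. For such lines a higher level in exosomes was built into the test, which limits the counts of higher lines given above. The gut miRNA miR-194-5p was not called in either treatment (0.18 and 0.58). The summed level of these 14 lines was 1742 to 11045 CPM in exosomes and 329 to 477 CPM in lysates, and their part in the level of miR-203 and miR-205 was not tested.

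**Figure D5:**
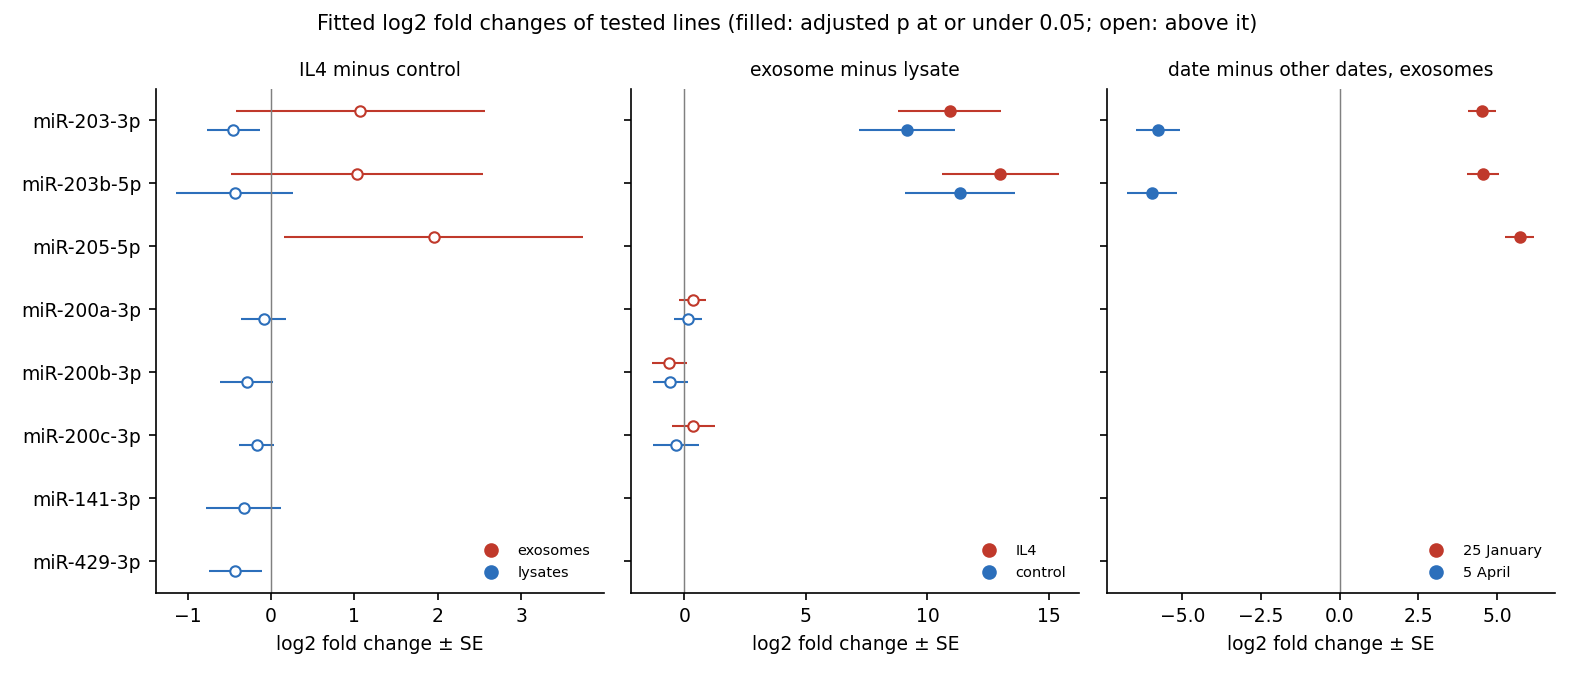
Log2 fold changes (TMM scale) with SE for the lines tested, in 3 panels: IL4 minus control, exosome minus lysate, and 25 January or 5 April minus the other exosome dates; filled points have an adjusted p of 0.05 or less. miR-205-5p is left out of the middle panel because all lysates had 0 counts, and out of the 5 April contrast, where it had 2 and 0 counts. In the middle panel miR-203-3p stands at 10.91 with IL4 and 9.16 in controls, while the miR-200 members lie between -0.62 and 0.38.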

How the data were processed

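The deposited table holds raw counts per mature miRNA line for 14 libraries. The values are whole numbers with no normalization, per the file headers and values. Exosomes were purified from supernatant on an OptiPrep density gradient and libraries made with a PerkinElmer NextFlex small RNA kit, per the labels' protocols. Reads were trimmed with cutadapt and the build was mm10, per the submitters' processing notes. The sources used here do not name the aligner, the counting program or its use of strand.

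The 10 lines, the lists and the tests were chosen with earlier results of these data known. Under R 4.3.3, edgeR 4.0.16 was fitted to the counts (filterByExpr, TMM, glmQLFit and a two-sided glmQLFTest, Benjamini-Hochberg over all lines tested, threshold 0.05). IL4 was compared with control within each compartment, and exosomes with lysates and the IL4 effects in 1 fit of 14 libraries. Date was tested with treatment as covariate. CPM are counts over the library total, and fold changes are on the TMM scale. SE is the absolute log2 fold change over the square root of F. Intervals and floors of 3 counts cover counting error only, since PCR reads are not independent molecules. The scripts were tested on simulated data.

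Biological coefficients of variation were 0.493 (exosomes), 0.35 (lysates) and 0.48 (both). The dates in the titles pair an IL4 and a control library. Their same-date correlations of deviations from group means were 0.185 to 0.724 in exosomes and 0.256 to 0.611 in lysates, so date was also fitted as a block. Besides the 10 lines, the text names the 5 lines most like each tested one other than miR-203b-5p by Pearson's r (log2 CPM, prior count 2). It also names the 5 largest rises of each exosome date, where as many were called, and listed miRNAs. Alternatives were RLE and library size scaling, no filter, DESeq2 1.42.0, the block, other pseudocounts and leaving out libraries or dates. Sequences are RefSeq's on GRCm38.p6.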

Additional observations from a re-analysis of the deposited data

Results flagged for a closer look

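Of the 18 sets of 4 exosome libraries with any count, 8 held a highest library far from the other 3; chance flags about 1 in 20 sets of continuous values, a rate that does not carry over to counts this sparse. In 4 of the 8 sets only 1 library had any count, which fixes the measure, and 2 of these are the equal lines miR-203-5p and miR-203b-3p. In the IL4 exosome library of 25 January, miR-203-5p and miR-203b-3p were each at 139.9 CPM with 0 in the other 3. That library was also the highest for miR-205-5p (3738 CPM), miR-200c-3p (419.7 CPM) and miR-141-3p (179.9 CPM, from 9 counts). Its CPM are divided by a total of which the miR-203 lines are 19.35%, or 11.1% with the miR-203b lines dropped. In IL4 exosomes of 5 April miR-429-3p was at 4.858 CPM, from 2 counts, with 0 in the others. In control exosomes miR-200b-3p stood at 164 CPM on 29 December, from 6 counts, and miR-141-3p at 5.024 CPM on 5 April, from 1 count.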

How the results depend on the processing

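All values here are log2 fold changes or counts of called lines among the 10. Exosomes over lysates for the miR-203 lines, the higher level of the miR-203 and miR-205 lines on 25 January and the difference of 2.24 in the miR-203b-5p to miR-203-3p ratio (2.10 to 2.44) kept their direction and call under every alternative run for them. For exosomes over lysates, all alternatives but that without the filter kept a filter passed through exosome counts. None separates compartment from date, depth or purification. With the filter on low counts removed, edgeR called 3 lines for IL4 in exosomes, 7 for exosomes over lysates with IL4, 2 for the difference of the IL4 effects and 1 for date in lysates. The call count for exosomes over lysates with IL4 was 5 without the exosome date of 16 March. The cause of these moves was not tested.

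With the replicate block for date, the IL4 difference of miR-203b-5p in exosomes was -0.061; the block changed no call on these lines. No block could be fitted for exosomes against lysates, which share no date. For exosomes over lysates in controls, miR-200c-3p turned to 0.063 with RLE, 0.43 with library size scaling, 0.27 with DESeq2 and 0.059 without 5 April. There miR-200b-3p was 0.28 with library size scaling, and miR-200a-3p was -0.33 with no filter, -0.12 without 25 January and -0.38 without 16 March. With IL4, miR-200b-3p was 0.089 with library size scaling and miR-200c-3p -1.27 without 25 January. Library size scaling moved the median of all lines by 0.81 in controls and 0.70 with IL4, and RLE by 0.39 and 0.30.

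Leaving out 1 library at a time, the IL4 difference in exosomes ran from -0.96 to 2.66 for miR-203-3p, -0.94 to 2.58 for miR-203b-5p and -1.44 to 3.98 for miR-205-5p. The lowest values came without the IL4 library of 25 January. In lysates it ran from -0.28 to 0.065 for miR-200a-3p and from -1.25 to 0.0059 for miR-203b-5p. Exosomes over lysates ran in controls from -1.51 to 0.47 for miR-200c-3p and -0.18 to 0.74 for miR-200a-3p, and with IL4 from -1.28 to 0.022 for miR-200b-3p and -1.20 to 0.97 for miR-200c-3p. The difference of the IL4 effects ran from -0.27 to 2.87 for miR-203-3p and -0.28 to 2.78 for miR-203b-5p. Lines called for date numbered 0 to 3 in exosomes (1 without the IL4 library of 16 March, 0 without that of 5 April) and 0 to 1 in lysates. The total counts of 28417 to 411671 in exosomes limit the miR-200 family there.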
